A study of Homo sapiens with 31 samples.

Results

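Interferon-stimulated genes are the genes that cells switch on when they sense an interferon, and 44 of them were examined here in TMD8 cells that carry the RHOA change p.R5W. The 44 genes were taken by symbol from the 25073 genes of the one expression table that holds these cells, and each of the 44 has a row there. TMD8 is a human line of diffuse large B-cell lymphoma, an aggressive cancer of B lymphocytes, and belongs to its activated B-cell-like type, and RHOA is a small GTPase that controls the actin cytoskeleton. The series holds 31 RNA-seq libraries. Of these, 27 are of lymphoma lines given DMSO, rhosin or ibrutinib, and the other 4 are the libraries described here. They are 2 libraries of TMD8 cells with RHOA p.R5W, treated overnight with 50 nM copanlisib, and 2 libraries of TMD8 cells with WT RHOA, treated the same way. Copanlisib is an inhibitor of PI3K, a kinase that works downstream of the B-cell receptor, and both genotypes received it. The values thus describe the genotypes under the drug. No R5W library without copanlisib is in the series. A genotype difference present without the drug and a different response to the drug therefore cannot be told apart. The labels do not say how many clones the R5W cells came from. They also do not say whether replicates were separate cultures, so p-values measure the spread between these samples, which may be technical.

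As background, type I and type III interferons bind receptors that activate the kinases JAK1 and TYK2, which phosphorylate STAT proteins, STAT2 among them. With IRF9 these STATs form a transcription factor, ISGF3, that binds a DNA element named ISRE in the promoters of interferon-stimulated genes. The products bind, cut or sense viral RNA, tag proteins with the ubiquitin-like protein ISG15, or feed back on the signal. In activated B-cell-like lymphoma lines, parts of this programme are known to be active without infection, and IRF4 is known to hold it down.

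Most of the interferon-stimulated genes had less RNA in R5W cells than in WT cells. Levels are given as normalised reads, which are the deposited log2 values taken to the linear scale. IFI27, a small interferon-induced protein of mitochondria, fell to 32.0 and 19.8 normalised reads in R5W cells, against 266 and 387 in WT cells. XAF1, which antagonises the apoptosis inhibitor XIAP, had 139 and 108 normalised reads in R5W cells, against 580.4 and 697 in WT cells. IFIT1, which binds viral RNA lacking the cap methylation of host RNA, had 39.3 and 27.7 normalised reads in R5W cells, against 163 and 201 in WT cells. For all 3 genes both R5W libraries lay below both WT libraries, by 12.3-fold, 5.15-fold and 5.35-fold between the group means on the log2(normalised reads + 1) scale.

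Of the 44 genes, 41 passed the filter of at least 10 normalised reads in at least 2 libraries, and 35 of these were lower in R5W at an adjusted p below 0.05 (limma, Benjamini-Hochberg over 13698 genes). Over all genes tested, 11.9% were lower and 13.1% were higher by the same rule. The number of interferon-stimulated genes higher in R5W was 0 with limma, 0 at an unadjusted p below 0.05, and 0 with edgeR and with DESeq2. The remaining 6 that were tested did not pass (IFIH1, UBE2L6, DTX3L, PARP14, RTP4 and LGALS3BP), and 3 were too low to test (RSAD2, CMPK2 and HERC5). The median log2 fold change was -0.73 over the 41 genes, where that of all genes tested was 0.01. Both R5W libraries lay below both WT libraries for 38 of the 41, against 30.6% of all genes tested, and above them for 1, IFIH1, against 32.4%. A log2 fold change below -1 was found in 17 of the 41, all of which passed the test, while 2.04% of all genes tested met both criteria. Of the 41, 1 gene, IFI44, passed the filter only through the WT libraries, which fixed its direction. Without it, 34 of 40 were lower, 16 of them with a log2 fold change below -1, both R5W libraries lay below both WT libraries for 37, and the median was -0.70. As a share of the library, the 44 genes together summed to 2066 and 2175 RPM (reads scaled to library size) in R5W, against 3067 and 3179 RPM in WT. In RNA from a whole culture, fewer cells that express a gene and less RNA of it per cell cannot be told apart.

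**Figure D1:**
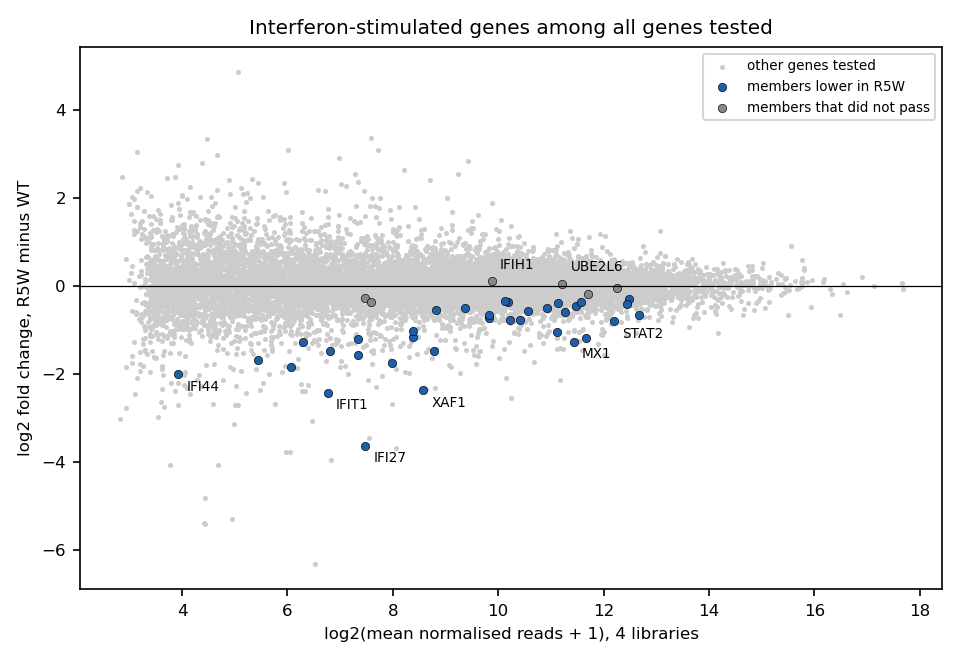
Log2 fold change of R5W minus WT (vertical axis) against the log2 mean level over the 4 libraries (horizontal axis) for 13698 genes, with the 41 interferon-stimulated genes tested drawn as larger points. Blue points are the 35 that were lower in R5W, dark grey points the 6 that did not pass, and IFI27 lies lowest of them at -3.62.

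The promoters show how the DNA element of the pathway is spread over these genes. RefSeq promoter windows of GRCh38.p14, running from 250 bases before to 50 bases after a start, were matched for 38 of the 44 genes. Those not matched are OAS2, OASL, IFIT2, MX2, TRIM22 and USP18. The ISRE core GAAANNGAAA was searched on both strands, and it was found in at least 1 window of 25 of the 38 genes, or 65.8%. The same core was found for 4.38% of the 27305 genes with a window, and for 4.17% of the 10195 genes with a window that were also tested. The core of the GAS element, TTCNNNGAA, which STAT dimers bind after interferon gamma, was found for 11 of the 38 genes, or 28.9%, against 9.38% of all genes with a window. The 2 motifs were counted separately, and neither had to be free of the other. An ISRE core was present in 18 of the 29 matched genes that were lower in R5W and in 5 of the 6 that did not pass. IFI44, whose direction was fixed by the filter, is among the 18. The median log2 fold change was -1.01 among tested genes with an ISRE core and -0.52 among those without one. For the GAS core the order was the other way, with -0.54 among tested genes that hold it and -0.765 among those that do not. The medians for each core include IFI44. A match is a description of letters and does not show binding. Only these letters and this spacing were searched, so a gene without a match may still hold a variant of the element.

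The bases before the start are given below for 6 genes, 5 with the core and 1 without it, read 5′ to 3′ on the strand of the gene, with each ISRE core in capitals. IFI27 (chr14:94110486-94110735, plus strand) and IFIT1 (chr10:89392373-89392622, plus strand) are shown because they fell furthest among the matched genes with a core. DDX60 (chr4:168318753-168319002, minus strand) and ISG15 (chr1:1013247-1013496, plus strand) show cores that lie apart and cores that overlap. IFIH1 (chr2:162318685-162318934, minus strand) is shown because it carries 3 cores and did not differ at the threshold. XAF1 (chr17:6755796-6756045, plus strand, 1 of its 2 starts) is shown because it fell with no match to the core in either window. A GAAACGAAA stretch, with a 1-base gap, crosses the end of its printed bases and does not match the core.
IFI27: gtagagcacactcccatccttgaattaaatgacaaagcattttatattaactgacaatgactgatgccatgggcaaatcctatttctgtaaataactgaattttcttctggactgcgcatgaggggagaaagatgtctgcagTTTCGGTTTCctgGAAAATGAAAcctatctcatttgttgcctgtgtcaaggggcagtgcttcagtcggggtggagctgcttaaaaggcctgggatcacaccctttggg
IFIT1: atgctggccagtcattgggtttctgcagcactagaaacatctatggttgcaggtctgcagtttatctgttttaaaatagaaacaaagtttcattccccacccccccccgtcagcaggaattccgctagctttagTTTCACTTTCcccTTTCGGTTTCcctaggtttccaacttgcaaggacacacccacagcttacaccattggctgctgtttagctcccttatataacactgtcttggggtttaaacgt
DDX60: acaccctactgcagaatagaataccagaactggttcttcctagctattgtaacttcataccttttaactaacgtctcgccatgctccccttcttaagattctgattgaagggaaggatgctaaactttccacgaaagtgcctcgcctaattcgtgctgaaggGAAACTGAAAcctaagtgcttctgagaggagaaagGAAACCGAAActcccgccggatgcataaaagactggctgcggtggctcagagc
ISG15: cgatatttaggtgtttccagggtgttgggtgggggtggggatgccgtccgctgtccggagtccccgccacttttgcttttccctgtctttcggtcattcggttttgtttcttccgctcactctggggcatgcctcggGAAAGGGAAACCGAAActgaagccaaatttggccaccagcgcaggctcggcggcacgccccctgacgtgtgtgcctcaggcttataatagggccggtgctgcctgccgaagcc
IFIH1: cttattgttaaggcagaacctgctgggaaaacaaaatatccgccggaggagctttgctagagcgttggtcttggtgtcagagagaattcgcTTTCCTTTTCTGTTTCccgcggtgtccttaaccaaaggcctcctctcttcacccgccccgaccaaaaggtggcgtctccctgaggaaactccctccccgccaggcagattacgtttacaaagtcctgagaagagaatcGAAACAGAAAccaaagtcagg
XAF1: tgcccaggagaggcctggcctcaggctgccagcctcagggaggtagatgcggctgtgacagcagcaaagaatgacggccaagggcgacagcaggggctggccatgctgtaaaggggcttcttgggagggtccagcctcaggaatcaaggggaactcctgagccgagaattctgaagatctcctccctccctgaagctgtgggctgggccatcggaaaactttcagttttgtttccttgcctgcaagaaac

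The first base of the cores lay 108 and 95 bases before the start in IFI27 and 116 and 103 bases before it in IFIT1. In ISG15 the cores began 113 and 107 bases before the start and overlapped, so they appear as 1 run of capitals. In DDX60 they began 88 and 53 bases before the start. In IFIH1 they began 159, 153 and 21 bases before it, and the first pair overlapped. A core was shared by 1 pair of genes, DTX3L and PARP9, which are transcribed away from each other and hold the same core within their windows. It begins 6 bases before the DTX3L start and 41 bases before 1 of the PARP9 starts, within chr3:122564322-122564351 on the plus strand.
DTX3L: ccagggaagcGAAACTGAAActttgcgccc

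The factors that carry the interferon signal to DNA were lower in R5W, 3 of 3. STAT2, the STAT that is used by type I and type III interferon and not by interferon gamma, averaged 3446 ± 184 normalised reads in R5W cells and 5964 ± 29.2 in WT cells (SD, n = 2 each). Its level was 3315 and 3576 in the R5W libraries, against 5943 and 5984 in the WT libraries, so the groups were well apart (log2 fold change -0.79, SE 0.076, adjusted p = 1.14e-05, limma). IRF9, the DNA-binding part of ISGF3, had 1249 and 1195 normalised reads in R5W cells, against 1721 and 1914 in WT cells (log2 fold change -0.57, adjusted p = 0.00051, limma). IRF1, a transcription factor that interferon gamma induces, had 344 and 393 normalised reads in R5W cells, against 527 and 544 in WT cells (log2 fold change -0.54, adjusted p = 0.00487, limma). In all 3 genes the R5W libraries lay below the WT libraries. No ISRE core was found in the windows of these 3 genes.

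The cytosolic sensors of RNA did not all move alike. DDX58, which encodes RIG-I, the sensor of RNA with a 5′ triphosphate, had 911 and 1114 normalised reads in R5W cells, against 1694 and 1732 in WT cells (log2 fold change -0.76, adjusted p = 0.000157, limma). DDX60, a helicase reported to aid RIG-I signalling, fell to 253 and 215 normalised reads in R5W cells, against 597 and 699 in WT cells (log2 fold change -1.47, adjusted p = 7.69e-06, limma). The genotypes did not overlap in either gene. IFIH1, which encodes MDA5, the sensor of long double-stranded RNA, had 1019.8 and 927 normalised reads in R5W cells, against 882 and 922 in WT cells. Its R5W libraries both lay above its WT libraries, but the difference of 0.11 on the log2 scale was close to its SE of 0.0957 (limma adjusted p = 0.452).

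The enzymes that act on or with double-stranded RNA were all lower in R5W, 5 of 5. OAS1, OAS2 and OAS3 make 2′-5′-linked oligoadenylates that activate RNase L, and OAS1, the first gene of their cluster on chromosome 12, had 4583 and 5043 normalised reads in R5W cells, against 6640.1 and 6114 in WT cells (log2 fold change -0.41, adjusted p = 0.00256, limma). OAS2 had 1882 and 2049 normalised reads in R5W cells, against 2961 and 2972 in WT cells, a log2 fold change of -0.59 (limma adjusted p = 0.00019). OAS3 had 865 and 910.2 normalised reads in R5W cells, against 1421 and 1602 in WT cells (log2 fold change -0.77, adjusted p = 8.28e-05, limma). In each of the 3 genes the R5W libraries lay below the WT libraries with no overlap. OASL, a relative that lacks the synthetase activity and binds RIG-I, had 22.1 and 17.1 normalised reads in R5W cells, against 62.2 and 67.8 in WT cells, the lowest level per length and the widest gap of the OAS genes (log2 fold change -1.69, SE 0.305, adjusted p = 0.00145, limma). EIF2AK2, which encodes the kinase PKR that stops translation, had 1082 and 939.7 normalised reads in R5W cells, against 1229 and 1377 in WT cells (log2 fold change -0.37, adjusted p = 0.0176, limma).

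The IFIT family binds foreign RNA and blocks its translation, and all 4 members fell past a log2 fold change of -1. IFIT2 had 113 and 119 normalised reads in R5W cells, against 386 and 393 in WT cells, with the replicates of each genotype close together (log2 fold change -1.74, SE 0.145, adjusted p = 3.89e-06, limma). IFIT3, which stabilises IFIT1 on RNA, had 50.4 and 67.3 normalised reads in R5W cells, against 143 and 186 in WT cells (log2 fold change -1.47, adjusted p = 0.000419, limma). IFIT5 had 214 and 224 normalised reads in R5W cells, against 415 and 471 in WT cells and fell by the least of the family (log2 fold change -1.01, adjusted p = 0.000129, limma). For IFIT1, whose values stand above, the log2 fold change was -2.42 (SE 0.241, limma adjusted p = 1.6e-05). The 4 genes neighbour each other on chromosome 10 and lie within the span that RefSeq gives to LIPA. The strand setting used for counting is not given in the sources used here, so a share of LIPA reads in these genes cannot be told apart.

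**Figure D2:**
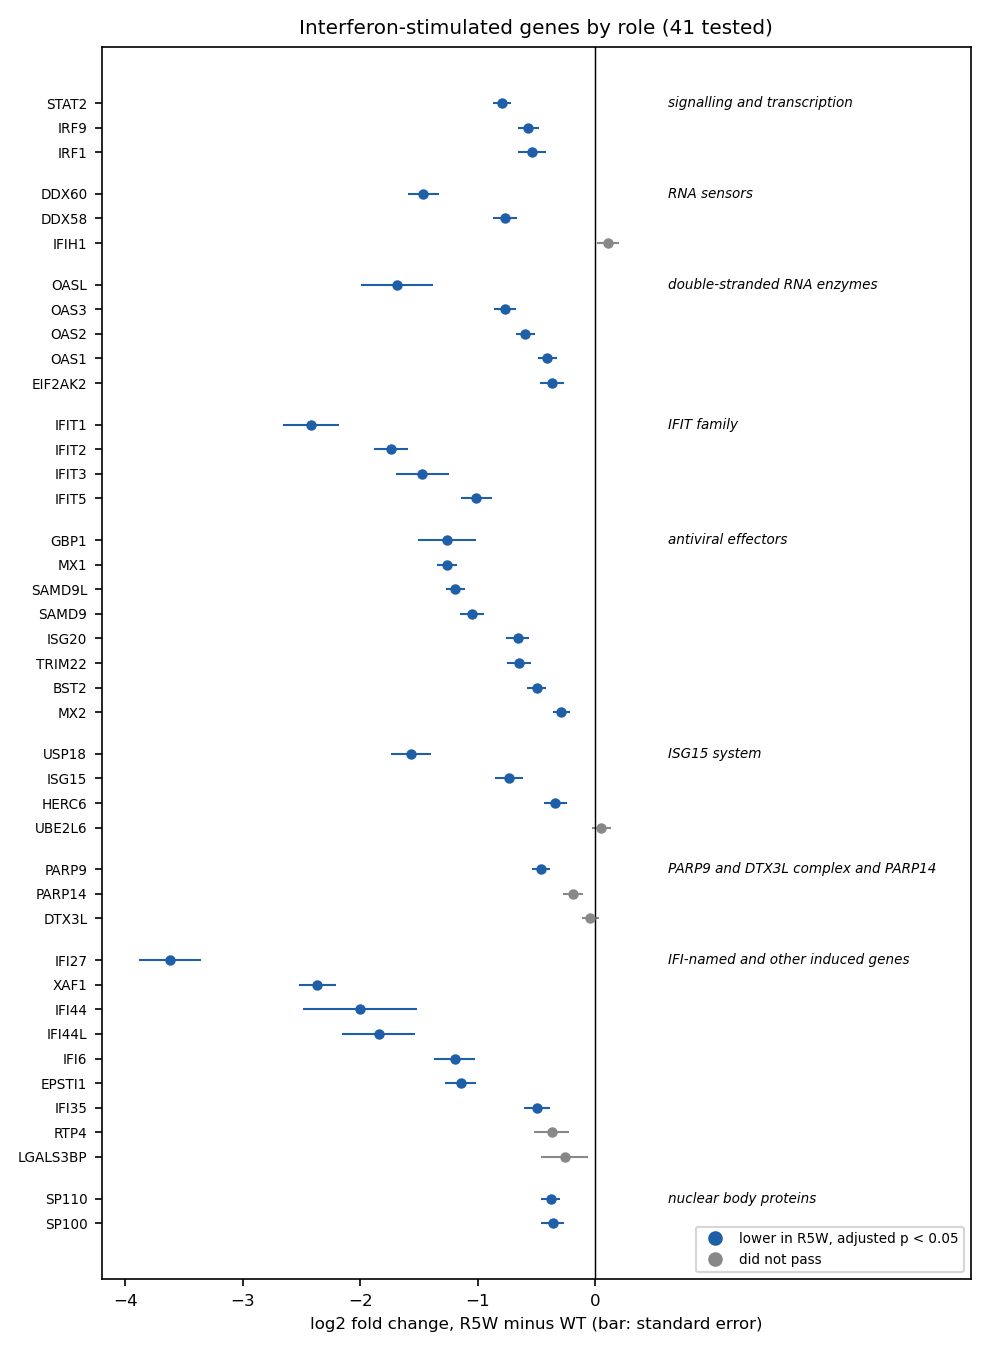
Log2 fold change of R5W minus WT (horizontal axis) with its standard error (bars) for the 41 interferon-stimulated genes tested, grouped by role down the page. All 4 IFIT genes lie left of -1, and IFIH1, UBE2L6 and DTX3L lie within 0.11 of 0.

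Among the antiviral effectors, 8 of the 10 genes could be tested and each of the 8 was lower in R5W. MX1, a dynamin-like GTPase that traps viral nucleocapsids, had 1693 and 1556 normalised reads in R5W cells, against 3681 and 4110.2 in WT cells (log2 fold change -1.26, SE 0.0863, adjusted p = 8.98e-07, limma). MX2, its neighbour on chromosome 21, which restricts HIV, had 5289.8 and 5067 normalised reads in R5W cells, against 6326 and 6330.0 in WT cells (log2 fold change -0.29, adjusted p = 0.0109, limma). Both genes had no overlap between the genotypes, but MX1 was 2.4-fold and MX2 1.22-fold lower. SAMD9L, which restrains translation, had 1902 and 2058 normalised reads in R5W cells, against 4411 and 4621 in WT cells (log2 fold change -1.19, adjusted p = 8.48e-07, limma). SAMD9, the adjoining paralog, had 1277 and 1614 normalised reads in R5W cells, against 2925 and 3026 in WT cells (log2 fold change -1.05, adjusted p = 1.62e-05, limma). These neighbours on chromosome 7 were thus lower by a similar fold, 2.28 and 2.07. TRIM22, a ubiquitin ligase with a role against retroviruses, had 4498 and 5737 normalised reads in R5W cells, against 8260.4 and 7707 in WT cells (log2 fold change -0.65, adjusted p = 0.000824, limma). BST2, also called tetherin, which holds budding virions at the cell surface, had 1670.4 and 1572 normalised reads in R5W cells, against 2309 and 2266 in WT cells (log2 fold change -0.50, adjusted p = 0.000735, limma). ISG20, an RNA exonuclease, had 741 and 658 normalised reads in R5W cells, against 1076 and 1131 in WT cells (log2 fold change -0.66, adjusted p = 0.000403, limma). TRIM22 had the most uneven R5W replicates of these 3 genes. GBP1, a guanylate-binding protein induced most by interferon gamma, was scarce, with 54.1 and 36.9 normalised reads in R5W cells, against 109 and 108 in WT cells (log2 fold change -1.26, adjusted p = 0.00242, limma). In each of these 4 genes the R5W libraries lay below the WT libraries, and the R5W replicates of GBP1 differed more from each other than its WT replicates did.

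The other antiviral effectors, RSAD2 and CMPK2, sit side by side on chromosome 2 and were near or at 0. RSAD2, which encodes viperin, gave 0 reads in both R5W libraries, against 2 and 5 reads in the WT libraries. CMPK2, a nucleotide kinase that supplies viperin's substrate, gave 0 reads in all 4 libraries. A count of 0 in a library allows up to 3 reads, so no fold is given for either. The filter left both out of the test.

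The ISG15 system attaches the ubiquitin-like protein ISG15 to other proteins, and its parts differed. ISG15 itself had 754 and 606 normalised reads in R5W cells, against 1033 and 1223 in WT cells (log2 fold change -0.73, SE 0.121, adjusted p = 0.000808, limma). USP18, which removes ISG15 from proteins and also shields the receptor subunit IFNAR2 from further signalling, had 82.3 and 79.2 normalised reads in R5W cells, against 258 and 226 in WT cells (log2 fold change -1.57, adjusted p = 3.75e-05, limma). USP18 was thus 2.96-fold lower in R5W and ISG15 1.66-fold, with no overlap of the genotypes in either gene. USP18 has a near-identical copy, USP41, and reads that fit both can be placed on either. UBE2L6, the enzyme that conjugates ISG15, had 2523 and 2327 normalised reads in R5W cells, against 2331 and 2339.5 in WT cells, and its R5W and WT libraries overlapped (log2 fold change 0.05, adjusted p = 0.685, limma). HERC6, a relative of HERC5 that acts as ISG15 ligase in mice, had 1042 and 925 normalised reads in R5W cells, against 1179 and 1307 in WT cells (log2 fold change -0.34, adjusted p = 0.0231, limma). HERC5, the main ISG15 ligase in human cells, gave 1 and 0 reads in the R5W libraries and 0 in both WT libraries.

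PARP9, DTX3L and PARP14 form a small cluster on chromosome 3, in which only PARP9 passed the test, under the deposited scaling and under TMM scaling. PARP9 binds DTX3L in a complex that modifies ubiquitin and histones, and it had 2303 and 2479.8 normalised reads in R5W cells, against 3318 and 3263 in WT cells (log2 fold change -0.46, adjusted p = 0.000999, limma). DTX3L, the ubiquitin ligase of that complex, had 4797 and 4837 normalised reads in R5W cells, against 4918 and 4987 in WT cells, a difference of -0.04 with an SE of 0.0726 (limma adjusted p = 0.738). PARP14, an ADP-ribosyltransferase, had 2974 and 3277 normalised reads in R5W cells, against 3343 and 3782 in WT cells (log2 fold change -0.19, adjusted p = 0.136, limma). Both R5W libraries lay below both WT libraries in each of the 3 genes, by little in DTX3L. PARP9 and DTX3L share the ISRE core printed above, and RefSeq has the genes overlapping, so reads of the overlap cannot be told apart without a strand setting. The difference between PARP9 and DTX3L was not tested.

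The genes named for their induction, many of less defined function, include the 1 with the widest fall. The log2 fold change of IFI27 was -3.62 (SE 0.261, limma adjusted p = 1.33e-06), and that of XAF1 was -2.37 (SE 0.157, limma adjusted p = 8.14e-07). IFI44L had 39.3 and 19.8 normalised reads in R5W cells, against 103 and 102 in WT cells, with the R5W libraries apart from each other by nearly 1 on the log2 scale (log2 fold change -1.84, SE 0.311, adjusted p = 0.00091, limma). IFI44, its neighbour on chromosome 1, had 4 reads in each R5W library, against 20 and 19 reads in the WT libraries. It entered the test only through the WT libraries, so its direction was fixed by the filter (log2 fold change -2.0, SE 0.483, adjusted p = 0.0087, limma). IFI6, which inhibits apoptosis and flavivirus replication, had 107 and 88.4 normalised reads in R5W cells, against 210.0 and 239 in WT cells (log2 fold change -1.20, adjusted p = 0.000362, limma). EPSTI1 had 206 and 207 normalised reads in R5W cells, against 425 and 496 in WT cells, with the R5W replicates close together (log2 fold change -1.15, adjusted p = 5.38e-05, limma). In both IFI6 and EPSTI1 the WT libraries lay well above the R5W libraries. IFI35, a binding partner of NMI, had 564 and 533 normalised reads in R5W cells, against 716 and 831 in WT cells (log2 fold change -0.49, adjusted p = 0.0055, limma). RTP4, a chaperone of membrane receptors, had 169.6 and 165 normalised reads in R5W cells, against 212 and 221 in WT cells, separate between the genotypes but short of the threshold (log2 fold change -0.37, adjusted p = 0.0931, limma). The IFI35 libraries were likewise separate, and that gene passed. LGALS3BP, a secreted galectin-binding glycoprotein, had 192 and 131 normalised reads in R5W cells, against 168 and 215 in WT cells, with overlap (log2 fold change -0.26, adjusted p = 0.385, limma).

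The genes of SP100 and SP110, proteins of nuclear bodies, sit close together on chromosome 2 and were lower by a similar amount. SP100 had 2395 and 2929 normalised reads in R5W cells, against 3492 and 3318 in WT cells (log2 fold change -0.36, adjusted p = 0.0144, limma). SP110 had 1916 and 1988 normalised reads in R5W cells, against 2513 and 2564 in WT cells (log2 fold change -0.38, adjusted p = 0.0037, limma). In SP100 the nearest R5W and WT libraries, 2929 and 3318, were closer to each other than the R5W replicates were. RefSeq has SP110 overlapping SP140, EIF2AK2 overlapping GPATCH11 and CMPK2 overlapping RSAD2, and reads of these overlaps too cannot be told apart.

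**Figure D3:**
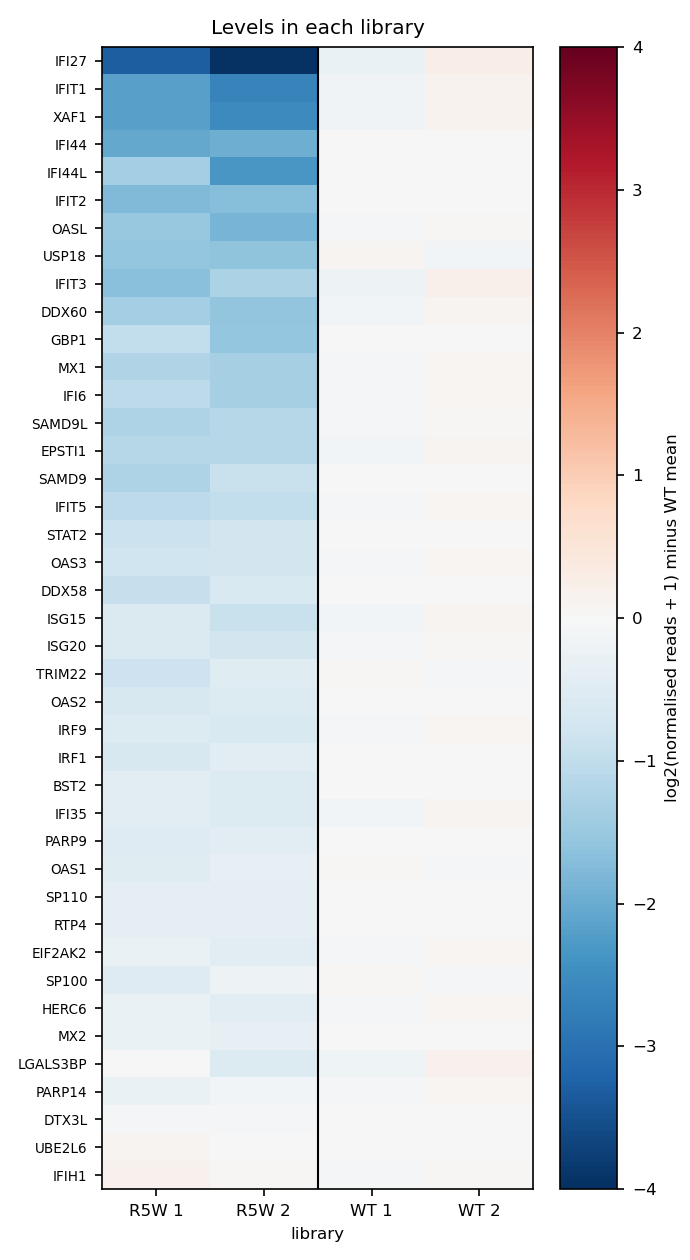
Level of each of the 41 interferon-stimulated genes tested (rows, sorted by log2 fold change) in each library (columns), as log2(normalised reads + 1) minus the mean of the WT libraries. Both R5W columns are blue from IFI27 down to MX2, and the WT columns stay close to 0.

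Within a genotype the genes varied little beside these differences. The size of the difference between the 2 R5W libraries had a median of 0.138 on the log2 scale over the 41 genes, where all genes tested had 0.154, and its largest value was 0.955, in IFI44L. Between the 2 WT libraries the median was 0.1, where all genes tested had 0.0919, and the largest was 0.538, in IFI27. WT replicate 2 was the higher of the WT libraries in 32 of the 41 genes, while R5W replicate 1 was the higher of the R5W libraries in 22 of the 41. Over all 41 genes the median of WT replicate 1 minus WT replicate 2 was -0.06 on the log2 scale.

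Per length of transcript, given as RPKM (reads scaled by transcript length and library size), the programme ranged from genes near the top of the cell's list to genes at 0. OAS1 came first at a mean of 112 RPKM in R5W and 149 RPKM in WT, and in WT it stood above 97.0% of the genes tested. TRIM22 followed at 66.4 RPKM in R5W and 104 RPKM in WT, BST2 at 66.6 RPKM in R5W and 94.7 RPKM in WT and MX2 at 67.8 RPKM in R5W and 83.4 RPKM in WT. UBE2L6, at 73.9 RPKM in R5W and 71.7 RPKM in WT, had the mean next below OAS1 in R5W and came directly after MX2 in WT. In R5W the levels of TRIM22 overlapped between libraries with those of UBE2L6, BST2 and MX2, so the order of these 4 genes there is not set beyond the spread. The IFIT genes were scarce by this measure, between 0.697 and 2.11 RPKM in R5W and between 2.53 and 4.35 RPKM in WT. By normalised reads, not scaled by length, the scarcer genes had the larger falls. The Spearman correlation between the mean level over the 4 libraries and the log2 fold change was 0.605 across the 41 genes. These include IFI44, whose direction was fixed by the filter. Across all 13698 genes the correlation was -0.0147. This is a description across genes that share the same 4 libraries, and both quantities are made from the same reads.

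How firmly single genes were called depended on the spread model. Of the 35 genes, 18 passed under each of 11 alternative settings: STAT2, DDX60, OAS2, OAS3, OASL, the 4 IFIT genes, MX1, ISG20, SAMD9, SAMD9L, USP18, IFI6, IFI27, XAF1 and EPSTI1. With limma run without its trend and robust options, 19 of the 41 were lower, against 3.1% of all genes tested, and IRF9, IRF1, DDX58, OAS1, EIF2AK2, MX2, GBP1, BST2, TRIM22, ISG15, HERC6, PARP9, IFI35, IFI44L, SP100 and SP110 no longer passed. Without WT replicate 1, 26 were lower, against 3.4% of all genes tested, and without WT replicate 2, 27 were lower, against 4.1%. IRF1, EIF2AK2, MX2, HERC6, SP100 and SP110 were lost without either WT library, OAS1 and PARP9 without WT replicate 1, and IFI35 without WT replicate 2. IFI44 could not be tested without either WT library and had no adjusted p with DESeq2. PARP14 passed only without R5W replicate 2 (log2 fold change -0.26, limma adjusted p = 0.000653) and LGALS3BP only without R5W replicate 1 (-0.54, limma adjusted p = 0.0177). In each setting that tested them, all 35 had a negative log2 fold change.

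The rest of the pathway was read from 87 further genes in 7 lists, of which 71 were tested, 27 were lower in R5W, 4 were higher and 40 did not pass. The other 16 were below the filter, among them the 9 ligand genes, STAT4, TMEM173, TLR3, GBP2, GBP4 and GBP5. The median of those tested, as a log2 fold change, was -0.17. Over all genes tested, 11.9% were lower and 13.1% were higher, and 25.0% passed in either direction. None of the 9 interferon ligand genes reached the filter in limma, and no ligand had more than 2 reads in a library. IFNB1, the gene of interferon beta, gave 0 reads in both R5W libraries and 2 and 0 reads in the WT libraries.

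Of the 6 receptor genes, 4 were lower in R5W and 2 did not pass, where 11.9% of all genes tested were lower. IFNAR1, a subunit of the type I receptor, had 1649.7 and 2113 normalised reads in R5W cells, against 2858 and 2896 in WT cells (log2 fold change -0.62, adjusted p = 0.00104, limma). IFNAR2, the other subunit, had 1753 and 2138 normalised reads in R5W cells, against 2576 and 2523 in WT cells (log2 fold change -0.40, adjusted p = 0.00895, limma). IL10RB, a subunit shared by type III interferon and interleukin-10, had 823 and 1041 normalised reads in R5W cells, against 1468 and 1421 in WT cells (log2 fold change -0.64, adjusted p = 0.000977, limma). In all 3 the R5W libraries lay below the WT libraries, and the R5W replicates were further apart than the WT replicates. IFNGR2, of the interferon gamma receptor, had 2266 and 2329.8 normalised reads in R5W cells, against 3029.8 and 2803 in WT cells (log2 fold change -0.34, adjusted p = 0.00735, limma). IFNGR1 had -0.31 (limma adjusted p = 0.0661) and IFNLR1 had -0.30 (limma adjusted p = 0.107).

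Among the JAK and STAT genes most did not pass the test. JAK2, the kinase of the interferon gamma receptor, had 2390.3 and 2687 normalised reads in R5W cells, against 3432 and 3571 in WT cells (log2 fold change -0.47, adjusted p = 0.00134, limma). Of the 8 genes tested, 6 did not pass, among them JAK1 and TYK2, with log2 fold changes between -0.17 and 0.50. Of 8 genes that restrain the signal, the phosphatase genes PTPN1 (log2 fold change -0.35, adjusted p = 0.00252, limma) and PTPN6 (log2 fold change -0.27, adjusted p = 0.0165, limma) were lower. These 2 of 8, and the same count among the JAK and STAT genes, stand beside 25.0% of all genes tested that passed in either direction. The other 6 ran between -1.03 and 1.24 and did not pass. The first of these is SOCS3, an inhibitor of JAK kinases, with 1430.2 and 2282 normalised reads in R5W cells, against 4273 and 3167 in WT cells, and its replicates were far apart in both genotypes (limma adjusted p = 0.132).

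The other interferon regulatory factors moved both ways. IRF4, a factor of activated B cells and plasma cells on which this lymphoma type depends, had 61615 and 63391 normalised reads in R5W cells, against 33225 and 33410.2 in WT cells (log2 fold change 0.91, SE 0.0674, adjusted p = 1.46e-06, limma). IRF5, which acts below Toll-like receptors, had 1794 and 1561 normalised reads in R5W cells, against 1246 and 1236 in WT cells (log2 fold change 0.43, adjusted p = 0.00418, limma). For both, the R5W libraries lay above the WT libraries. IRF7, the factor that amplifies type I interferon production and is itself interferon-induced, had 626 and 525 normalised reads in R5W cells, against 1126 and 1106 in WT cells (log2 fold change -0.96, adjusted p = 3.91e-05, limma). IRF2, IRF3 and IRF8 ran between -0.11 and -0.05 and did not pass.

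Of 16 sensors and adaptors tested, 7 were lower in R5W, against 11.9% of all genes tested. AIM2, the sensor of cytosolic DNA, had 1008 and 1403 normalised reads in R5W cells, against 2619 and 2619 in WT cells (log2 fold change -1.14, adjusted p = 0.000256, limma). The RNA sensors of endosomes TLR7 (log2 fold change -0.51, adjusted p = 0.00181) and TLR8 (-1.03, adjusted p = 0.00506) were lower, as were the DNA sensor TLR9 (-0.36, adjusted p = 0.00478) and UNC93B1 (-0.38, adjusted p = 0.00338), which carries these receptors to endosomes (limma). DHX58, which encodes the RIG-I relative LGP2 (-0.46, adjusted p = 0.0131), and TRIM25, a ubiquitin ligase of the RIG-I pathway (-0.31, adjusted p = 0.0108), were lower as well (limma). The other 9 ran between -0.72 and 0.30.

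Of 27 other interferon-induced genes tested, 11 were lower in R5W, 2 were higher and 14 did not pass. Among all genes tested, 11.9% were lower and 13.1% were higher. LY6E, a surface protein that limits entry of some viruses, fell to 22.1 and 26.4 normalised reads in R5W cells, against 131 and 128 in WT cells (log2 fold change -2.38, SE 0.249, adjusted p = 2.41e-05, limma). NLRC5, the activator of MHC class I genes, had 1843 and 2303 normalised reads in R5W cells, against 3423 and 3234 in WT cells (log2 fold change -0.69, adjusted p = 0.000329, limma). HELZ2 (-0.78, adjusted p = 0.000346), TRIM38 (-0.72, adjusted p = 2.72e-05), TYMP (-0.65, adjusted p = 0.000159) and TRAFD1 (-0.62, adjusted p = 0.000197) were lower by log2 fold changes of that order (limma). C19orf66 (-0.43, adjusted p = 0.00478), TRIM5 (-0.40, adjusted p = 0.00473), NUB1 (-0.37, adjusted p = 0.00635), APOBEC3G (-0.37, adjusted p = 0.0429) and TDRD7 (-0.34, adjusted p = 0.0301) were lower by less (limma). CXCL10, a chemokine that draws T cells, had 158 and 109.5 normalised reads in R5W cells, against 43.4 and 77.7 in WT cells, so it was higher in R5W (log2 fold change 1.17, adjusted p = 0.0103, limma). TRIM14, an adaptor of the MAVS pathway, had 1247 and 1167 normalised reads in R5W cells, against 796 and 869 in WT cells (log2 fold change 0.54, adjusted p = 0.00125, limma). Of the 31 pathway genes that passed, 5 also passed without limma's trend and robust options (IRF4, IRF7, LY6E, HELZ2 and TRIM38). That setting called 5 of the 71 pathway genes tested and 900 of all 13698 genes tested, a similar share. Lost without either WT library were IFNAR2, IFNGR2, PTPN6, IRF5, TRIM25, DHX58, UNC93B1, APOBEC3G, NUB1, TDRD7, TRIM5 and C19orf66, with PTPN1, TLR8, TLR9, TRIM14 and CXCL10 lost without WT replicate 1 and JAK2 and TLR7 without WT replicate 2. APOBEC3G was also lost without R5W replicate 1, and APOBEC3G and TDRD7 with DESeq2.

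**Figure D4:**
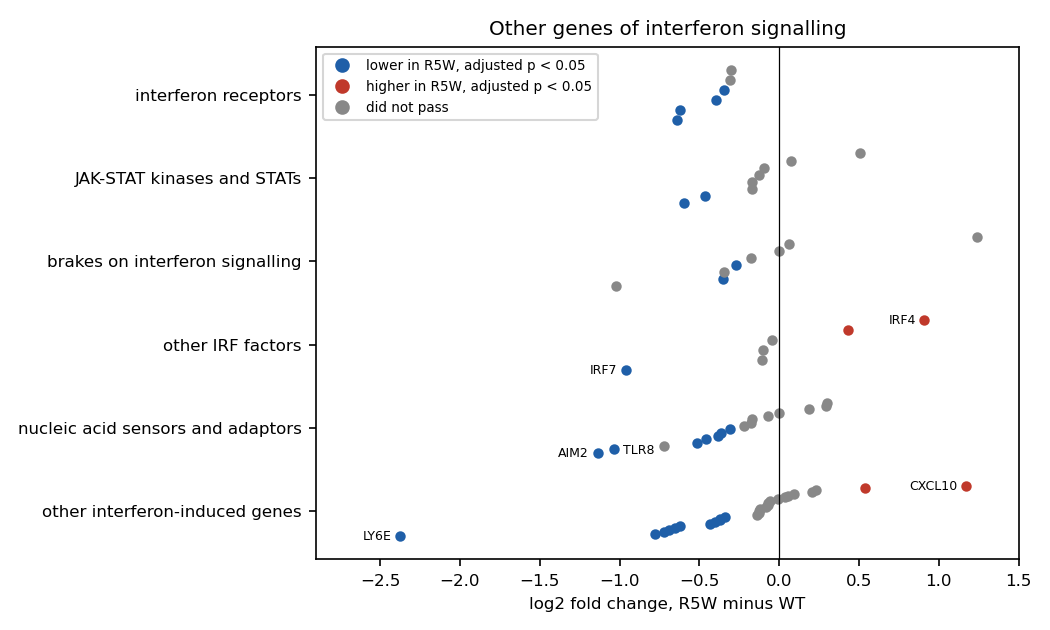
Log2 fold change of R5W minus WT (horizontal axis) of 71 further genes of interferon signalling, in 6 lists down the page (the ligands were not tested). LY6E lies at -2.38, and IRF4, IRF5, CXCL10 and TRIM14 are the 4 red points, higher in R5W.

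The libraries and the cells were checked as follows. The reads recovered from the deposited values of all genes summed to between 19460630 and 21956536 per library. These sums are estimates, since whole reads were checked only up to 200 reads a gene. RHOA had 12899 and 13597 normalised reads in R5W cells, against 14523 and 13345 in WT cells, a difference of -0.07 (limma adjusted p = 0.531), which checks its expression and not the changed codon. All 7 B-cell marker genes were above 1 RPKM in each library, but their summed level was 1782 and 1787 RPKM in R5W, against 2263 and 2264 RPKM in WT. Of these 7, 5 were lower in R5W, where 11.9% of all genes tested were lower. MS4A1 was among the 5 (log2 fold change -0.66, adjusted p = 0.000149, limma). T-cell markers summed to at most 0.0639 RPKM, with CD3D, CD3G and CD2 at 0 in each library, and myeloid markers to at most 0.262 RPKM, with S100A8 and S100A9 at 0. The 3 plasmacytoid dendritic cell markers summed to 6.42 and 7.41 RPKM in R5W, against 9.96 and 10.1 RPKM in WT. Of these, LILRA4 gave 0 reads in both R5W libraries, with 43.4 and 38.2 normalised reads in the WT libraries. Epithelial markers summed to 7.59 and 6.77 RPKM in R5W, against 1.95 and 2.21 RPKM in WT, nearly all from KRT8, with EPCAM at 0. Fibroblast markers summed to 5.98 and 6.56 RPKM in R5W, against 3.32 and 3.3 RPKM in WT. The part of these marker differences in the interferon results was not tested.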

How the data were processed

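RNA was measured by stranded mRNA sequencing in 2 R5W and 2 WT libraries of TMD8 cells under 50 nM copanlisib. Per the submitters' processing notes, the tools were bcl2fastq, cutadapt, STAR, RSEM and Picard with builds GRCh37 and hg19. No tool version is given in the sources used here. The authors deposited log2 values of scaled read counts per gene, with a count of 0 written as 0. Taken to the linear scale they are called normalised reads here. The scaling factor of each library was recovered from the steps of low values, and all values up to 200 reads then came out whole within 0.1. RPKM was computed from these reads and the transcript length in the table. The drug tables hold deposited counts and were only checked: of 38 of these genes over 100 normalised reads in WT, 16 had under 1 count in the mean of TMD8 DMSO libraries, so those tables were not used for them.

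Genes with at least 10 normalised reads in at least 2 libraries were tested on log2(normalised reads + 1), with genotype as the only term, in limma 3.58.1 (trend and robust, R 4.3.3). P-values were adjusted by Benjamini-Hochberg over all genes tested, at a threshold of 0.05. The test was checked on simulated data in which all genes and libraries were given the same spread beyond counting error. That check cannot show how the p-values hold where the spread differs, as between R5W and WT replicates here. The design had allowed for counts or for normalised values, and the test for the second was used since the table holds log2 values. Alternatives were a pseudocount of 5, no filter, TMM scaling, edgeR 4.0.16 quasi-likelihood and DESeq2 1.42.0 on the recovered reads, limma without trend and robust, a replicate block, and leaving out each library. All 44 genes were named, and of each pathway list those past the threshold, except that a few genes of the lists are not reported here. The members, lists and tests were chosen with earlier results of these data known. Of the rows of the table, 27 bear names turned into dates and are not named here. Promoter sequences, neighbours and overlaps come from RefSeq, GRCh38.p14. Standard errors are those of the fit, and limits from counts of 0 cover counting error only.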

Additional observations from a re-analysis of the deposited data

How the results depend on the processing

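The count of 35 interferon-stimulated genes lower in R5W lay between 34 and 36 with a pseudocount of 5, no filter, TMM scaling, edgeR, DESeq2 and the replicate block, and between 26 and 36 when 1 library was left out. The count higher was 0 in each setting. Their median log2 fold change lay between -0.80 and -0.65 over all settings. Limma without trend and robust called 19 of them, all lower. Over all genes it called 900, of which 480 were higher and 420 lower, where the main setting called 3428, 1794 and 1634. It called 5 pathway genes, 4 lower and 1 higher, where the main setting called 31, 27 and 4. Leaving out 1 library gave between 1024 and 5668 genes called, between 561 and 2817 higher and between 463 and 2851 lower, with the lowest counts without WT replicate 1 and the highest without R5W replicate 2. The same settings gave between 14 and 42 pathway genes called, between 13 and 35 lower and between 1 and 8 higher. In these fits the lone library is assumed to vary like the other genotype. The cause of these shifts was not tested. With 1 library left out, the log2 fold change of UBE2L6 lay between -0.0055 (without R5W replicate 1) and 0.11, and that of LGALS3BP between -0.54 and 0.014 (without R5W replicate 2), so both turned direction, with no pass in the turned fits. The count of 36 without the filter includes RSAD2, which had 0 reads in both R5W libraries and no adjusted p with DESeq2, so it is not read as a call.

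No shared effect of the replicate number was seen: the difference of replicate 1 minus replicate 2 correlated at -0.0608 between genotypes over 13698 genes. That value does not show whether the libraries were handled in pairs. With the replicate block, 3713 genes were called (1927 higher, 1786 lower), with 35 interferon-stimulated genes lower and 34 pathway genes called (29 lower, 5 higher). Depth limits RSAD2, CMPK2 and HERC5, which had at most 5 reads in a library, and 2 libraries a genotype limit every estimate of spread.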
